A study of Mus musculus with 20 samples.

Results

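A set of 10 genes that carry salt, water and small acids across the colonic epithelium, or that signal to those carriers, was followed in mouse colonic organoids (colonoids) with and without TNFR2, the receptor for TNF encoded by Tnfrsf1b. They were chosen by name: Slc26a3, Slc9a3, Scnn1a, Aqp8 and Aqp4 for absorption, Cftr and Slc12a2 for chloride secretion, Guca2a and Guca2b as peptide signals, and Slc16a1 for short-chain fatty acids. This choice was made with earlier results of these data known. All 10 were found among the 35240 gene symbols of the expression table, and 9 of the 10 reached the mean level of 1 needed for testing. Colonoids are hollow epithelial structures grown from crypts in a gel matrix. The WT cultures came from C57BL/6 mice and the Tnfr2-/- cultures from mice that lack functional Tnfrsf1b in the whole body (B6.129S2-Tnfrsf1b tm1Mwm/J), so the deletion was not limited to the epithelium. Crypts of the distal colon were embedded in Matrigel under Intesticult medium, passaged 5 times and filtered through a mesh. RNA was taken on 5 days after the last passage, given as days post-passage (DPP), at 1, 2, 3, 5 and 7 DPP. No treatment was given to either genotype, and per the methods of the study the cultures came from mice of both sexes. Each genotype was represented by 2 mice and each mouse by 1 library per day, which makes 20 libraries. Days 1 to 3 are called early and days 5 and 7 late.

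The colon recovers salt and water from its contents, and it can also secrete them. Surface colonocytes take up sodium through the exchanger NHE3 (Slc9a3) and the epithelial sodium channel, take up chloride in exchange for bicarbonate through DRA (Slc26a3), and let water follow, in part through aquaporins. Crypt cells load chloride across their basolateral membrane through NKCC1 (Slc12a2) and release it into the lumen through CFTR. The peptides guanylin (Guca2a) and uroguanylin (Guca2b) act on the receptor guanylate cyclase C, whose product cGMP favours secretion and slows sodium uptake. MCT1 (Slc16a1) moves lactate, butyrate and other monocarboxylates.

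Values are normalised expression, that is, transcript abundance per length (TPM) divided by the authors' size factor for each library and summed per gene, so that levels can be compared between genes. The values keep no read count for single libraries, for which the study states only an approximate common depth, so the counting error of low genes could not be worked out. Library sums lay between 900655 and 1111080, between 13007 and 13469 genes per library reached 1, and the Pearson correlation of paired mice across genes was 0.9229 to 0.9563. Tnfrsf1b was at 11.14 to 21.89 in WT and at 2.714 to 11.45 in Tnfr2-/- cultures, and it was lower over all days in Tnfr2-/- (log2 fold change -1.35, SE 0.167, limma adjusted p = 9.72e-05). It differed by -1.72 early and by -0.79 late (adjusted p = 0.0323, lost in 8 of 24 leave-outs), and rose by 1.02 late in Tnfr2-/-. Every epithelial marker was detected, and their sum lay between 11320 and 19610. Fibroblast markers were also present, with sums of 1075 to 3581 in WT and 2633 to 6968 in Tnfr2-/- cultures, whereas immune markers summed to at most 45.23 and endothelial markers to at most 4.166. Of 13539 genes tested, 175 differed between the mice of the WT group and 3 between those of the Tnfr2-/- group.

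WT mouse 1 stood apart. The summed level of 12 absorptive colonocyte markers was 4174 and 8464 in WT mouse 1 at 5 and 7 DPP, of which Lypd8 alone made up 2447 and 6760. It was 1415 and 1910 in WT mouse 2 and 1359 to 1995 in the 4 late Tnfr2-/- libraries. WT mouse 2 thus lay near the Tnfr2-/- cultures in this sum, and WT mouse 1 lay above all of them at each of these days. Not every marker followed, since Slco2a1 was lower in WT mouse 1 over all days (-1.32, adjusted p = 0.0356) and Krt20 differed by -0.051. In bulk RNA, fewer cells of a type and less RNA per cell cannot be told apart.

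**Figure D1:**
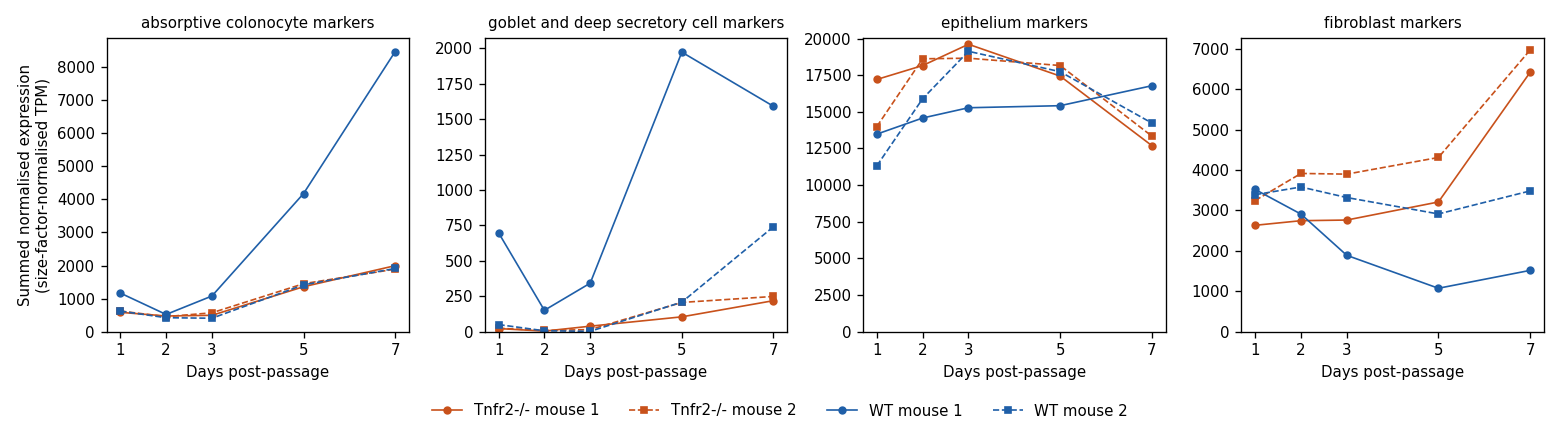
Summed normalised expression of 4 marker lists (y axis, size-factor-normalised TPM) against days post-passage (x axis) for each mouse; blue is WT, orange is Tnfr2-/-, circles and solid lines are mouse 1, squares and dashed lines are mouse 2. WT mouse 1 rises to 8464 for absorptive markers at 7 DPP, while the other mice lie between 1890 and 1995, and its fibroblast sum is 1075 at 5 DPP.

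The DNA upstream of 4 of these genes is shown, Cftr because it carried the genotype difference, Guca2a and Guca2b because they are neighbouring genes, and Slc26a3 because its letters matched motifs of epithelial factors. Each line gives the 250 bases before the RefSeq gene start (GRCm38.p6), in the direction of the gene, with motif matches in capitals. The intervals are chr6:18170437-18170686 on the plus strand for Cftr, chr4:119637482-119637731 on the plus strand for Guca2a, chr4:119658946-119659195 on the minus strand for Guca2b and chr12:31437969-31438218 on the plus strand for Slc26a3.
Cftr: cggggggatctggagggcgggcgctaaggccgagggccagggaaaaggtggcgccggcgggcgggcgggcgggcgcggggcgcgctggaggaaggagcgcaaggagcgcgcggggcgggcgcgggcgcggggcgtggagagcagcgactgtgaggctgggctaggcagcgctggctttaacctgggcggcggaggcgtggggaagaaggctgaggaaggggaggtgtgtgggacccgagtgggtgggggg
Guca2a: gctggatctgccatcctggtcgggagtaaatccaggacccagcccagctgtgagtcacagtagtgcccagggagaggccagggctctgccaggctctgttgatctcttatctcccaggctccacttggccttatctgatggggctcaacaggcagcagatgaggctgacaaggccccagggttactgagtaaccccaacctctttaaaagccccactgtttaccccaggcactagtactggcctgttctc
Guca2b: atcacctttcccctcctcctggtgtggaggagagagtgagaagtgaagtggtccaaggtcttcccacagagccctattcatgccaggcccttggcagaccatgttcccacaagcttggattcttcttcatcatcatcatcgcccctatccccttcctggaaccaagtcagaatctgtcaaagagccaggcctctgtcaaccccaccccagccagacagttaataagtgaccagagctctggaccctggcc
Slc26a3: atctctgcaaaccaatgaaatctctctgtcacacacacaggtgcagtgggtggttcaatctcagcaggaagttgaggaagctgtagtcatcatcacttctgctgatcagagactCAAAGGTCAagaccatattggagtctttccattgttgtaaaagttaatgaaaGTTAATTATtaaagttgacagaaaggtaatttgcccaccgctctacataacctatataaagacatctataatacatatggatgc
RefSeq promoters were matched for 7 of the 10 genes, and 3 motifs of factors that act in colonocytes were sought on both strands, with letters chosen after the sequences had been read. The HNF1 letters GTTAATNAT occurred in 0.737% of 32841 promoters of this length, the HNF4 letters CAAAGNNCA in 5.49% and the CDX letters TTTATNG in 9.81%. Slc26a3 held the HNF1 letters starting 84 bases before the gene start and the HNF4 letters starting 136 bases before it, and these matches did not overlap. No other matched promoter held any of the 3 motifs, and none held the CDX letters. GC content was 76.4% in the Cftr window, 57.2% and 54.4% in those of Guca2a and Guca2b and 38.8% in that of Slc26a3, against a median of 52.4% over all promoters.

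In level, secretory loading stood far above the rest. Slc12a2 averaged 247.2 ± 87.2 (SD, n = 20 libraries), ranked 574 among all symbols, and made up 63.8% to 88.6% of the summed level of the 10 genes. Slc16a1 followed at 36.1 ± 8.61 and Scnn1a, the alpha subunit of the epithelial sodium channel, at 13.9 ± 7.52. Cftr averaged 9.99 ± 6.43. Each of Slc12a2, Slc16a1 and Cftr lay above the next gene in the order in 20 of 20 libraries, and Scnn1a lay above Cftr in 17 of 20.

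Apart from Scnn1a, the genes listed for absorption were low, as were those of the guanylins. Guca2a averaged 2.80 ± 4.50, Aqp4 1.70 ± 2.14, Aqp8 1.56 ± 2.77, Slc26a3 1.39 ± 2.07 and Guca2b 1.28 ± 1.44. These 5 neighbours could not be ordered beyond their spread, since Guca2a exceeded Aqp4 in 11 of 20 libraries, Aqp4 exceeded Aqp8 in 11, Aqp8 exceeded Slc26a3 in 9 and Slc26a3 exceeded Guca2b in 9. Slc9a3 averaged 0.108, was listed at 0 in 14 libraries and was not tested. Its values above 0 were 0.1028 and 0.1029 in Tnfr2-/- mouse 1 at 1 and 2 DPP, 0.2119 in Tnfr2-/- mouse 2 at 3 DPP, 0.2789 and 0.2422 in WT mouse 1 at 5 and 7 DPP, and 1.211 in WT mouse 2 at 7 DPP. The gene that encodes the main apical sodium-hydrogen exchanger was therefore at or near 0 in these cultures.

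**Figure D2:**
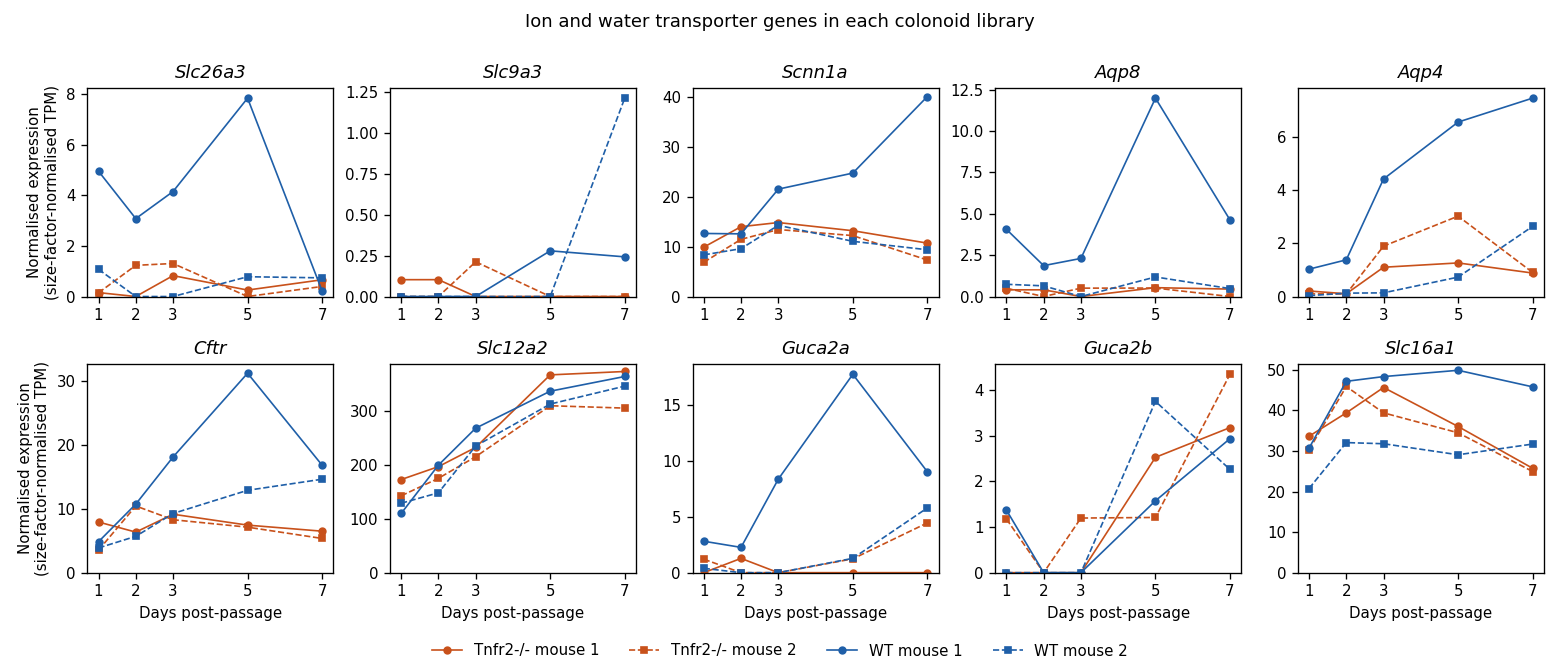
Normalised expression of the 10 genes (y axis, size-factor-normalised TPM, a separate scale from 0 in each panel) against days post-passage (x axis) in every library; colours and symbols mark genotype and mouse as in the legend. Slc12a2 ends above its start in all 4 mice, Cftr ends at 14.6 and 16.79 in WT and at 5.346 and 6.48 in Tnfr2-/-, and Slc26a3, Aqp8, Aqp4, Guca2a and Scnn1a are highest in WT mouse 1.

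The sums rested on different transcripts. Aqp4, Slc12a2, Guca2a and Slc16a1 had a single transcript in the table, and the full coding transcript of Cftr held 90.0% of the Cftr mean. For Slc26a3 the main coding transcript held 34.1% of the mean and was above 0 in 5 libraries, while the main retained-intron transcript held 29.8%. For Aqp8 the main coding transcript held 48.3% and a processed transcript held 35.8%. For Slc9a3 a processed transcript held 56.3% and made up its highest value, 1.211. Values of Slc26a3, Aqp8 and Slc9a3 thus came in part from transcripts that are not annotated as coding. The main coding transcript of Scnn1a held 73.9% of its mean.

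How the transporters changed as the cultures matured was asked first within each genotype. In WT, Slc12a2, Cftr and Guca2b rose from early to late, and in Tnfr2-/- cultures Slc12a2 and Guca2b rose. None of the 9 genes tested fell. The 3 of 9 called higher in WT stand against 11.6% of all genes tested, and the 2 of 9 in Tnfr2-/- against 10.4%. The median log2 change of the 9 genes was 0.97 in WT and 0.078 in Tnfr2-/-, beside 0.018 and 0.022 over all genes. Of the 9 genes, 5 reached the mean of 1 only through libraries in which they are high. Guca2b averaged 0.312 in the early libraries. Guca2a averaged 0.820 in Tnfr2-/-, and Aqp4, Aqp8 and Slc26a3 averaged 0.881, 0.423 and 0.506 without WT mouse 1. Counts and medians that include these 5 are given as a description, and their calls are no independent support.

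**Figure D3:**
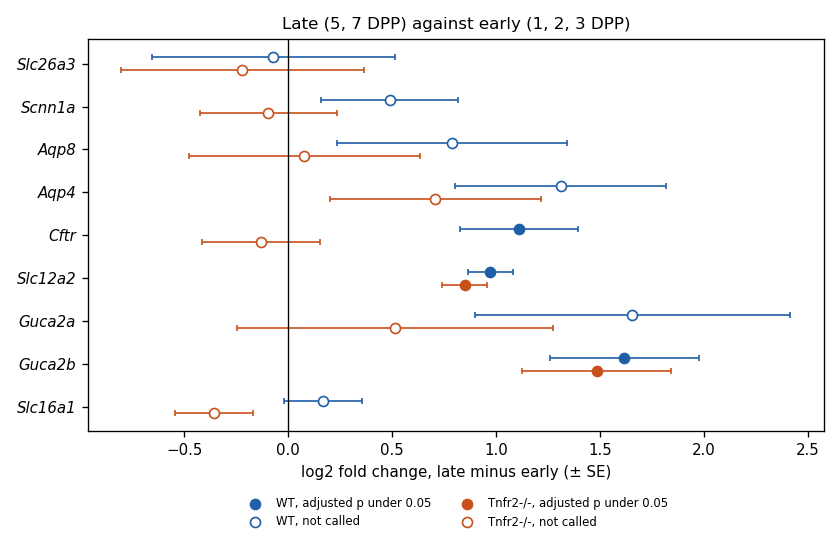
Log2 fold change of late over early libraries on the log2(value + 1) scale (x axis, bars are the SE) for the 9 genes tested (y axis), in WT (blue) and Tnfr2-/- (orange); filled points passed an adjusted p of 0.05. Slc12a2 and Guca2b are filled in both genotypes, at 0.97 and 1.62 in WT and at 0.85 and 1.48 in Tnfr2-/-, and Cftr is filled in WT only, at 1.11.

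Slc12a2 rose on every step from 1 to 7 DPP in WT mouse 1, at 109.9, 199.7, 268.3, 337 and 364.3. In WT mouse 2 it was 128.9, 148.3, 235.2, 313.1 and 346.4. The Tnfr2-/- series were 172.9, 196.9, 232.6, 367.3 and 373.6 in mouse 1 and 142.7, 175.2, 215.4, 310 and 305.6 in mouse 2. Every late library lay above every early library in each genotype. Such separation upward was found for 4.97% of all genes in WT and 9.56% in Tnfr2-/-. The log2 change was 0.97 (SE 0.109, adjusted p = 1.78e-04) in WT and 0.85 (SE 0.109, adjusted p = 2.47e-04) in Tnfr2-/-. In Tnfr2-/- the call was lost when either Tnfr2-/- mouse was left out at every day (0.81 without mouse 1 and 0.89 without mouse 2). The spread of these fits came from WT alone, so the lost call does not measure how stable the change is.

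Guca2b behaved likewise at far lower levels. It was listed at 0 at 2 DPP in all 4 mice and in 9 of 20 libraries overall. In WT its values at 1, 2, 3, 5 and 7 DPP were 1.372, 0, 0, 1.574 and 2.935 in mouse 1 and 0, 0, 0, 3.751 and 2.26 in mouse 2. In Tnfr2-/- they were 0, 0, 0, 2.526 and 3.177 in mouse 1 and 1.176, 0, 1.196, 1.209 and 4.344 in mouse 2. Late libraries lay above all early ones in both genotypes, but the gap in Tnfr2-/- was only that between 1.196 and 1.209. The log2 change was 1.62 (SE 0.359, adjusted p = 0.00727) in WT and 1.48 (SE 0.359, adjusted p = 0.0107) in Tnfr2-/-. At these low levels the size depended on the pseudocount, from 0.54 to 4.06 in WT and from 0.53 to 3.51 in Tnfr2-/- between pseudocounts of 5 and 0.1. With no filter on low values, which had let the gene in through its late libraries, the adjusted p-values were 0.00834 and 0.0121. The WT change was 1.98 without WT mouse 1 and 1.25 without WT mouse 2, neither of them called. The Tnfr2-/- change was not called without Tnfr2-/- mouse 1 (1.03), without Tnfr2-/- mouse 2 (1.94) or without the 5 DPP library of Tnfr2-/- mouse 1 (adjusted p = 0.0548). With a whole mouse left out, the spread came from the other genotype alone, so a call lost there does not measure stability.

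Cftr, the apical chloride channel, climbed in WT from 4.835, 10.71 and 18.07 at 1 to 3 DPP to 31.16 and 16.79 at 5 and 7 DPP in mouse 1. In mouse 2 it went from 3.862, 5.678 and 9.244 to 12.87 and 14.6. In Tnfr2-/- mouse 1 it was 7.915, 6.337, 9.131, 7.428 and 6.48 over the 5 days, and in Tnfr2-/- mouse 2 it was 3.521, 10.42, 8.271, 7.109 and 5.346. WT values were higher late than early with some overlap, and the Tnfr2-/- values stayed within 3.521 to 10.42 throughout. The log2 change was 1.11 (SE 0.284, adjusted p = 0.0152) in WT and -0.13 (SE 0.284, adjusted p = 0.797) in Tnfr2-/-. The WT call was lost without either Tnfr2-/- mouse, without WT mouse 1 (1.09) and without its library of 5 DPP (0.81, adjusted p = 0.0840) or 7 DPP (1.06, adjusted p = 0.0613). In the whole-mouse fits the spread came from the other genotype alone.

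Because each mouse gave a library on every day, the change over time was also fitted with mouse as a block, which compares days within an animal. With mouse as a factor, Aqp4 (log2 change 1.31, adjusted p = 0.00604) and Guca2a (1.66, adjusted p = 0.0346) were called higher late in WT as well, both being among the 5 genes that reached the filter through libraries where they are high. Without the block their adjusted p-values were 0.0856 and 0.145. Slc16a1 was called lower late in Tnfr2-/- with the block (-0.36, adjusted p = 0.0141) and not without it (adjusted p = 0.205). With mouse as a correlated block Aqp4 was called in WT (adjusted p = 0.0435) while Guca2a (adjusted p = 0.0929) and, in Tnfr2-/-, Slc16a1 (adjusted p = 0.124) were not.

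Aqp4, a basolateral water channel, rose in each WT mouse from its own base. It was 1.026, 1.376, 4.41, 6.543 and 7.442 in WT mouse 1 and 0.03155, 0.1267, 0.1376, 0.7277 and 2.631 in WT mouse 2. Tnfr2-/- mouse 1 was at 0.2072, 0.1037, 1.098, 1.26 and 0.8805, and Tnfr2-/- mouse 2 at 0.09851, 0.09736, 1.889, 3.015 and 0.903. Mouse 1 lay above mouse 2 on every day in WT, and both were higher at 7 DPP than at 1 DPP. Guanylin (Guca2a) was 2.819, 2.268, 8.388, 17.79 and 9.049 in WT mouse 1 and 0.3901, 0, 0, 1.285 and 5.808 in WT mouse 2. In Tnfr2-/- mouse 1 it was above 0 only at 2 DPP, at 1.281, and in Tnfr2-/- mouse 2 it was 1.209, 0, 0, 1.242 and 4.465. Guca2a and Guca2b lie 17135 bases apart on chromosome 4 (Guca2a at 119637704-119639471 on the plus strand, Guca2b at 119656607-119658954 on the minus strand, GRCm38). WT mouse 1 was highest at 5 DPP for Guca2a and at 7 DPP for Guca2b, where WT mouse 2 was higher than it at 5 DPP.

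The remaining genes were not called late against early in either genotype. Scnn1a changed by 0.49 (adjusted p = 0.323) in WT, where mouse 1 went from 12.66 at 1 DPP to 40.15 at 7 DPP and mouse 2 from 8.357 to 9.388. Of the 40.15 units, the main coding transcript held 18.08. Without the WT mouse 2 library of 7 DPP the Scnn1a change was called (0.99, adjusted p = 0.0178). With WT mouse 1 as the only WT animal it was 1.02. Aqp8 changed by 0.79 (adjusted p = 0.345) and Slc26a3 by -0.071 (adjusted p = 0.949) in WT. With WT mouse 1 alone the Aqp8 change was 1.23. The residual spread of a fit with 1 WT animal came from the Tnfr2-/- libraries only, so that WT variation between animals was not measured in it.

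Loss of TNFR2 was compared with WT over all days, early and late. Late Tnfr2-/- cultures had less Cftr than late WT cultures, and no other gene of the 10 was called between genotypes in any of these comparisons. All 4 late Tnfr2-/- libraries, at 5.346 to 7.428, lay below all 4 late WT libraries, at 12.87 to 31.16. Means were 0.350 times as high in Tnfr2-/-, a log2 difference of -1.31 (SE 0.311, adjusted p = 0.0249). This 1 of 9 called lower stands against 2.64% of all genes called lower, and 6.07% of all genes separated downward without overlap.

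The same was seen in the main transcript, which was at 12.68 to 23.12 in late WT and at 5.346 to 6.48 in late Tnfr2-/- libraries. Early, Cftr did not separate the genotypes, at 3.862 to 18.07 in WT and 3.521 to 10.42 in Tnfr2-/- (log2 fold change -0.075, SE 0.254, adjusted p = 0.942). By day, the Tnfr2-/- libraries lay below the WT libraries at 3, 5 and 7 DPP, yet 0 of 9 genes were called on any single day, against 0.0739%, 0.096%, 0.155%, 1.65% and 0.82% of all genes at 1, 2, 3, 5 and 7 DPP, and Cftr was not (-1.35, adjusted p = 0.151 at 5 DPP and -1.27, adjusted p = 0.211 at 7 DPP). The change of the genotype effect from early to late, tested directly, was -1.24 (SE 0.402, unadjusted p = 0.0084, adjusted p = 0.251), and 0 of 9 genes were called in this test against 0.148% of all genes. Of the 9, only Cftr had an unadjusted p under 0.05 there.

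The late Cftr call was lost in 9 of 24 leave-outs, including each of the 4 late Tnfr2-/- libraries (adjusted p from 0.0621 to 0.0867), the WT mouse 1 libraries of 5 DPP (-1.01, adjusted p = 0.117) and 7 DPP (-1.27, adjusted p = 0.0638), and each whole mouse other than WT mouse 2, without which it was -1.66. On mouse means, 2 mice against 2, the same difference had an adjusted p of 0.260, and with mouse as a correlated block one of 0.0269. The direction held in all 37 alternatives, from -1.66 to -0.96. Where a whole mouse was left out, the spread came from the other genotype alone.

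Cell type markers were read beside this result, where 3.8% of all genes were called higher and 2.64% lower in late Tnfr2-/- cultures. In the late libraries fibroblast markers summed to 3210 to 6968 in Tnfr2-/- and 1075 to 3483 in WT, 1 of 8 was called (Dcn, higher in Tnfr2-/- by 2.74), and no marker of the list was at 0. Absorptive colonocyte markers summed to 1359 to 1995 in Tnfr2-/- and 1415 to 8464 in WT, and 2 of 12 were called lower (Car1 by -4.73 and Cyp2c55 by -4.39). The sums of WT mouse 2 were 1415 and 1910, so the higher WT sums were those of WT mouse 1. Goblet and deep secretory markers summed to 104.9 to 248.8 in Tnfr2-/- and 208.7 to 1972 in WT, with 0 of 7 tested called. Immune markers summed to 19.64 to 45.23 in Tnfr2-/- and 8.751 to 16.94 in WT, with Cd68 called higher by 1.35 and Ptprc, Cd3e and Itgam below a mean of 1. Epithelial markers summed to 12700 to 18160 in Tnfr2-/- and 14240 to 17740 in WT. With every library rescaled to the same epithelial marker sum, a step added after the data were seen, late Cftr differed by -1.25 (adjusted p = 0.0448). Such rescaling does not reach shifts among epithelial cell types. The part of cell composition in the Cftr difference was not tested.

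**Figure D4:**
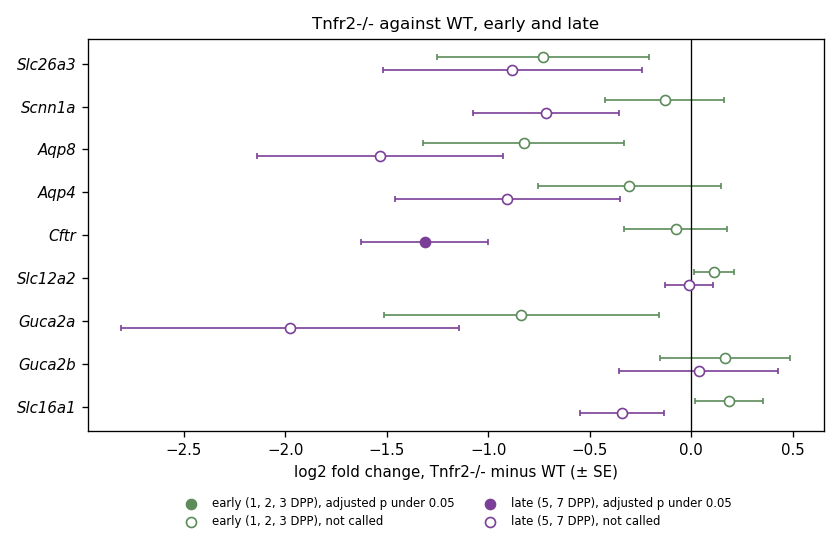
Log2 fold change of Tnfr2-/- over WT on the log2(value + 1) scale (x axis, bars are the SE) for the 9 genes tested (y axis), early (green, 1 to 3 DPP) and late (purple, 5 and 7 DPP). The late Cftr point, at -1.31, is the only filled one, and Slc12a2 lies at 0.11 early and -0.0087 late.

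Chloride loading did not differ detectably. Late Slc12a2 was 305.6 to 373.6 in Tnfr2-/- and 313.1 to 364.3 in WT, which is -0.0087 on the log2 scale (SE 0.119, adjusted p = 0.978). The sign of this value changed with the scaling of the libraries. The 2 genes for the entry and exit of chloride in the crypt cell had different patterns late, Cftr lower and Slc12a2 with overlapping ranges, although the difference between the genes was not tested.

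Over all days 0 of 9 genes were called, against 7.6% of all genes, and early 0 of 9 against 1.2%. By limma, 3 of 9 had an unadjusted p under 0.05 over all days, 3 late and 0 early. These were Cftr, Aqp8 and Guca2a both over all days and late. Over all days Aqp8 (log2 fold change -1.11, SE 0.352, adjusted p = 0.0645), Guca2a (-1.29, adjusted p = 0.126) and Cftr (-0.57, SE 0.234, adjusted p = 0.156) had the lowest p-values. Late, 8 of the 9 values were below 0 and the median was -0.88, beside -0.047 over all genes. This median is the value of Slc26a3. Slc26a3, Aqp8, Aqp4 and Guca2a passed the filter only through WT libraries, where they are high, so count and median are a description. Other late values were -1.98 for Guca2a (adjusted p = 0.177), -1.53 for Aqp8 (adjusted p = 0.153), -0.91 for Aqp4 (adjusted p = 0.359), -0.88 for Slc26a3 (adjusted p = 0.449), -0.71 for Scnn1a (adjusted p = 0.260), -0.34 for Slc16a1 (adjusted p = 0.351) and 0.037 for Guca2b (adjusted p = 0.972). Without WT mouse 1 late values were -0.96 for Cftr, -1.08 for Guca2a, -0.12 for Guca2b and -0.021 for Slc16a1. Slc12a2 was then at 0.036 and Scnn1a at 0.056.

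Aqp8, an apical water channel of surface colonocytes, was at most 0.5342 in all 10 Tnfr2-/- libraries. In WT mouse 1 its values were 4.06, 1.866, 2.301, 11.98 and 4.625, and WT mouse 2 had 0.7384, 0.6447, 0, 1.182 and 0.478. The Tnfr2-/- libraries lay below the WT libraries at 1, 2, 5 and 7 DPP and overlapped at 3 DPP. Over all days it differed by -1.11 (adjusted p = 0.0645), and it was not called with mouse as a correlated block (adjusted p = 0.1003) or on mouse means (adjusted p = 0.549). It was called with the replicate number as a factor (adjusted p = 0.0229), which pairs different animals, and without the library of WT mouse 2 at 1 DPP (adjusted p = 0.0447), 3 DPP (adjusted p = 0.0316) or 5 DPP (adjusted p = 0.0423). Late it was called without the library of WT mouse 2 at 5 DPP (-2.18, adjusted p = 0.0321).

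Slc26a3, the chloride-bicarbonate exchanger, was 4.962, 3.085, 4.157, 7.854 and 0.2199 in WT mouse 1. WT mouse 2 had 1.077, 0, 0, 0.7834 and 0.7393, and the gene was at most 0.827 in Tnfr2-/- mouse 1 and at most 1.307 in Tnfr2-/- mouse 2. WT mouse 1 was the highest library on each day until 7 DPP, where it was the lowest. Slc16a1 ranged from 30.69 to 49.88 in WT mouse 1, 20.74 to 32.06 in WT mouse 2, 25.73 to 45.64 in Tnfr2-/- mouse 1 and 24.93 to 45.89 in Tnfr2-/- mouse 2. At 7 DPP both Tnfr2-/- values, 25.73 and 24.93, lay below the WT values of 45.8 and 31.7.

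The WT mice differed from each other in Aqp8 and Slc16a1. In a comparison added after the data were seen, mouse 1 over mouse 2 with a term for each day, 2 of 9 genes were called in WT, against 1.29% of all genes, and 0 of 9 in Tnfr2-/-, against 0.0222%. Aqp8 was higher in WT mouse 1 by 1.71 (SE 0.290, adjusted p = 0.0468) and Slc16a1 by 0.59 (SE 0.0981, adjusted p = 0.0447). Aqp8, Aqp4 and Slc26a3 reached the mean of 1 needed for testing only through WT mouse 1, the animal in which they are high, so their mouse and genotype tests give no support of their own. Guca2a differed by 2.00 (adjusted p = 0.0710), Slc26a3 by 1.54 (adjusted p = 0.132), Aqp4 by 1.53 (adjusted p = 0.0568), Scnn1a by 0.91 (adjusted p = 0.119) and Cftr by 0.67 (adjusted p = 0.132), while Slc12a2 differed by 0.11 and Guca2b by 0.13. Leaving out a WT mouse leaves 1 WT library a day, so the spread in these fits came from the Tnfr2-/- libraries alone and the lone WT animal was assumed to vary like them. Without WT mouse 2, 6 of 9 genes passed as lower in late Tnfr2-/- cultures (Cftr, Aqp8, Aqp4, Guca2a, Scnn1a and Slc16a1), against 8% of all genes, up from 2.64% with all libraries. Without WT mouse 1 the genes Aqp8, Aqp4 and Slc26a3 fell below the mean of 1 needed for testing, and 0 of the 6 left passed, against 1.47% of all genes. There late Cftr stood at -0.96 (adjusted p = 0.129). Scnn1a was also called without only the WT mouse 2 library of 7 DPP (-1.21, adjusted p = 0.0293).

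Genes that work with these transporters were read from a list of 43 tested partners in 8 groups. The list was drawn up with earlier results of these data known, so its counts and medians are a description and no independent support. In late WT against early WT, 21 were called higher and 2 lower, against 11.6% and 8.52% of all genes. In Tnfr2-/- 12 were called higher and 1 lower, against 10.4% and 9.93%, and the medians were 0.61 in WT and 0.30 in Tnfr2-/-. The sodium channel group had the largest median change in WT among the 8 groups, 1.56, which is the value of Scnn1g. Its beta and gamma subunits Scnn1b (1.56, adjusted p = 0.0128) and Scnn1g (1.56, adjusted p = 0.0134), the kinase Sgk1 (1.58) and Hsd11b2 (2.97), the enzyme that shields the mineralocorticoid receptor from glucocorticoids, rose in WT. Hsd11b2 and Scnn1g averaged 0.595 and 0.639 in the early libraries and were tested through the late ones, where they are high. Their calls and the rank of the group are therefore no independent support. In Tnfr2-/- Sgk1 (1.03) and Hsd11b2 (2.01) rose, 2 of 7. Late Scnn1b was 2.133 to 9.813 in WT and 0.45 to 3.87 in Tnfr2-/-, and late Scnn1g 1.454 to 7.324 and 0.551 to 3.001, against 9.388 to 40.15 and 7.329 to 13.21 for the alpha subunit.

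Of 6 partners of chloride and bicarbonate secretion tested, 4 rose late in WT and 3 in Tnfr2-/-. The potassium channel subunit Kcne3, which helps to keep the driving force for chloride exit, rose by 1.56 in WT and 1.54 in Tnfr2-/-, the bicarbonate cotransporter Slc4a4 by 1.04 and 1.21 and the chloride channel Clcn2 by 1.55 and 1.03. Kcnq1, the pore that pairs with Kcne3, rose in WT (0.61, adjusted p = 0.0143). In the sodium pump group Atp1b1 rose by 1.84 and 1.75 and Fxyd4, a pump regulator, by 3.17 and 4.10. Among apical carriers Atp12a, the colonic proton-potassium pump, rose by 2.93 and 2.25, Slc26a2 rose in WT (0.75) and the scaffold gene Slc9a3r1 fell by 0.84 in Tnfr2-/-. The monocarboxylate exporter Slc16a3 rose in both (1.53 in WT) and Bsg, its chaperone, by 0.61 and 0.60.

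Downstream of the guanylins, the receptor gene Gucy2c rose in WT (1.72, adjusted p = 0.0417) from 0.2523 to 9.546 early to 4.455 to 22.43 late, but this call was lost in 20 of 35 alternatives. The cGMP-dependent kinase gene Prkg2 fell by 1.60 in WT (adjusted p = 1.88e-04), a call kept in all 36 alternatives, from 14.03 to 29.53 early to 4.577 to 6.777 late. In Tnfr2-/- Prkg2 went from 15.69 to 31.84 to 13.41 to 22.59 (-0.54, adjusted p = 0.0572). Among transcription factors, Cdx1 (2.40), Vdr (1.91), Hnf4a (1.51) and Klf5 (0.88) rose in WT and Klf5 (0.87) in Tnfr2-/-. Fxyd3 (0.61) rose and Atp1b3 fell by 0.43 in WT, and Fxyd3 (1.27) rose in Tnfr2-/-. Of the 23 partner calls in WT, 7 were kept in every alternative (Atp12a, Kcne3, Hsd11b2, Sgk1, Prkg2, Slc16a3 and Fxyd4), while Slc4a4 lost its call in 24 of 36 and Gucy2c in 20 of 35. Of the 13 in Tnfr2-/-, 0 were, each being lost without either Tnfr2-/- mouse, when 2 of all genes were called in that comparison. No member of the other aquaporins was called, the lowest p-values being those of Aqp1 in WT (1.09, adjusted p = 0.104) and Aqp5 in Tnfr2-/- (0.30, adjusted p = 0.610).

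Between genotypes, 4 partners were higher and 3 lower in late Tnfr2-/- cultures, against 3.8% and 2.64% of all genes. Higher were Prkg2 (1.41, adjusted p = 0.00174), Slc16a3 (1.06, adjusted p = 0.0223), the sodium-hydrogen exchanger Slc9a2 (0.97, adjusted p = 0.0106) and Fxyd3 (0.70, adjusted p = 0.0477). The lower ones included Slc26a2 (-0.997, adjusted p = 0.0306) and Slc9a8 (-0.77, adjusted p = 0.0289). Late Prkg2 was 13.41 to 22.59 in Tnfr2-/- and 4.577 to 6.777 in WT, and late Slc9a2 8.858 to 16.74 and 4.817 to 6.921, with no overlap in either. Upward separation of this kind was found for 5.35% of all genes. Of these 7 calls 0 were kept in all alternatives, Prkg2 losing its call in 3 of 37 and Fxyd3 in 27. In the 4 groups without a call the lowest p-values were those of Sgk1 (-0.69, adjusted p = 0.0920), Vdr (-1.55, adjusted p = 0.120), Aqp5 (-0.98, adjusted p = 0.158) and Slc4a4 (0.94, adjusted p = 0.162).

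Over all days Slc16a3 (1.25, adjusted p = 1.77e-04), Slc4a4 (0.84, adjusted p = 0.0242), Prkg2 (0.78, adjusted p = 0.0160) and Slc9a2 (0.50, adjusted p = 0.0410) were higher. Aqp5 (-1.17, adjusted p = 0.00979), Slc26a2 (-0.67, adjusted p = 0.0224) and the cGMP phosphodiesterase Pde5a (-0.64, adjusted p = 0.0362) were lower. Aqp5 passed the filter only through WT, where it is higher (mean 2.52 early and 2.62 late, against 0.39 and 0.73 in Tnfr2-/-), so its call is no independent support. The 4 higher and 3 lower of 43 stand against 4.51% and 3.09% of all genes. Of these 7 calls 0 were kept in every alternative, Slc9a2 losing its call in 24 of 38 and Pde5a in 17, and Slc4a4 ran from 0.28 to 1.41. The lowest p-values of the other groups were those of Sgk1 (-0.37, adjusted p = 0.142), Fxyd3 (0.31, adjusted p = 0.220) and Klf4 (-0.41, adjusted p = 0.236). Early, only Slc16a3 of the 43 was called (1.38, adjusted p = 0.00334), against 1.2% of all genes. It was 50.87 to 94.63 in early Tnfr2-/- and 12.12 to 43.66 in early WT libraries. The early call was lost in 3 of 37 alternatives (mouse means and without either Tnfr2-/- mouse), the late one in 7 of 37, and that over all days in 1 of 38, on mouse means. The other early lowest p-values by group included those of Aqp5 (-1.30, adjusted p = 0.0751), Abcc4 (-0.47, adjusted p = 0.158), Kcne3 (0.51, adjusted p = 0.246), Scnn1b (0.86, adjusted p = 0.300), Slc26a2 (-0.45, adjusted p = 0.367) and Atp1b3 (0.032, adjusted p = 0.937). In the test of a changed genotype effect 0 of 43 partners were called by limma, against 0.148% of all genes, with 9 at an unadjusted p under 0.05, and the lowest p-values by group, of those reported, ran from Prkg2 (1.05, adjusted p = 0.162), Scnn1b (-1.83, adjusted p = 0.215), Slc9a2 (0.79, adjusted p = 0.236), Kcnq1 (-0.62, adjusted p = 0.283), Vdr (-1.50, adjusted p = 0.443) and Aqp1 (-0.99, adjusted p = 0.571) to Slc16a3 (-0.33, adjusted p = 0.715). The other monocarboxylate carrier, Slc16a1, was not called in any of these comparisons.

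Genes with the pattern most like each transporter were found by the root-mean-square difference of centred log2(value + 1) over the 20 libraries. Cftr lay nearest to Hoxa3 (0.297) and Gmds (0.310), against its own SD of 0.686. Slc12a2 lay nearest to Fyco1 (0.210) and Tshz2 (0.213), Slc16a1 to Tom1l1 (0.161) and Atp5a1 (0.166), and Scnn1a to Pik3c2b (0.286) and Dnajc22 (0.294). Aqp8 lay nearest to Mep1b (0.415) and Cyp4f14 (0.471), Aqp4 to Clrn3 (0.400) and Hnf4a (0.405), and Guca2a to Mep1a (0.624) and Adh1 (0.673). Guca2b lay nearest to Blvrb (0.492) and Bpgm (0.496), and Slc26a3 to Akr1c19 (0.550) and 1810014B01Rik (0.598). The distances of the 5 low genes were larger than those of Cftr, Slc12a2, Slc16a1 and Scnn1a. Their own SDs were larger too, at 0.892 to 1.317 against 0.336 to 0.686, so the distances do not rank how well genes match.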

How the data were processed

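Stranded mRNA libraries were sequenced by the authors as single-end reads, and per the labels handled with CASAVA, kallisto and sleuth on mm10. The deposited signal is TPM per transcript divided by a size factor per library, and it keeps no read counts. The authors' table also holds p-values, q-values, test statistics and log-scale means of their own comparison, none of which were used. Counts or plain TPM had been planned for, so the test for normalised values was used.

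Of 113974 lines, 781 repeats and 199 transcripts without a gene (at most 0.0989% of a library) were dropped, and values were summed per symbol. Values were analysed as log2(value + 1), which understates changes of low genes, for 13539 genes with a mean of at least 1 (limma 3.58.1, R 4.3.3, mean-variance trend, Benjamini-Hochberg over all genes, called at 0.05). Genotype over all days had day as a factor; all else were contrasts of 10 group means. The fits were tested on simulated data. Members, partner lists and markers were chosen with earlier results of these data known. Named are all members, every partner called and the partner of lowest p in each group with none, and the 2 nearest genes per member. A few partner and marker genes that the rule names are not reported here, but stay in the counts and sums. Coordinates are GENCODE M21 (GRCm38) and promoters RefSeq GRCm38.p6.

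The mice were read from the replicate numbers, and each gave 1 library per day. Deviations of the same mouse on different days correlated at 0.1 to 0.307 in WT and -0.051 to 0.08 in Tnfr2-/-, and same-numbered WT and Tnfr2-/- libraries, which are different animals, at -0.054 to 0.076. Genotype p-values that treat days of a mouse as independent may be too small. Alternatives were other pseudocounts, filters, scalings, mouse blocks, mouse means and leaving out each library or mouse. Python 3.11.15 with pandas 2.3.3 and numpy 2.4.6 made the tables.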

Additional observations from a re-analysis of the deposited data

Results flagged for a closer look

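Of 36 sets of 4 late or 6 early libraries of the same genotype, 2 held a library far from the others by Dixon's test, which flags about 1 in 20 sets by chance. Aqp8 was listed at 0 in Tnfr2-/- mouse 2 at 7 DPP, while the other 3 late Tnfr2-/- libraries were at 0.4479 to 0.5342. Guca2b was at 1.372 in WT mouse 1 at 1 DPP, while the other 5 early WT libraries were listed at 0.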

How the results depend on the processing

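The 3 genes called higher late in WT numbered 5 with the replicate block of mouse as a factor, and 1 to 5 over the leave-outs. The 2 called in Tnfr2-/- numbered 1 with genes of mean at least 5, where Guca2b was not tested, and 0 to 3 over the leave-outs. The 1 called lower late numbered 0 on mouse means and 0 to 6 over the leave-outs (6 without WT mouse 2). Over all days 0 became 1, Aqp8, with the replicate number as a block, which pairs different animals (adjusted p = 0.549 on mouse means, 0.1003 with correlated mouse blocks), and 0 to 6 over the leave-outs. Early the leave-outs gave 0 to 2, Aqp8 and Slc26a3 without WT mouse 2. No member was called for the interaction in any fit. With mouse as a factor the calls in Tnfr2-/- numbered 3, with Slc16a1 added, and with mouse as a correlated block Aqp4 was added in WT. With a whole mouse left out, the fits of 10 group means took their residual spread (5 degrees of freedom) from the other genotype alone, and the lone mouse was assumed to vary like it. Rescaling libraries to equal sums turned the late split over all genes from 515 higher and 358 lower to 417 and 546, that over all days from 611 and 418 to 424 and 722, that of late against early from 1571 and 1153 to 1275 and 1479 in WT and from 1411 and 1344 to 1111 and 1710 in Tnfr2-/-, and the early split from 104 and 58 to 79 and 75.

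Several values near 0 turned sign, none of them called. Equal sums gave -0.014 for Guca2b late, -0.0082 for Slc12a2 over all days and -0.037 for Atp1b3 early, and the median ratio gave 0.013 for Slc12a2 late. Epithelial rescaling gave -0.14 early, 0.062 late, -0.059 over all days and 0.20 in the interaction for Slc12a2, -0.060 for Slc16a1 early, -0.22 for Atp1b3 early, 0.055 for Slc26a3 in the interaction, 0.058 for Cftr and 0.099 for Scnn1a late against early in Tnfr2-/-, and -0.031 for Tnfrsf1b late against early in WT. A pseudocount of 0.1 gave 0.28 for Slc26a3 late against early in WT. The causes were not tested.

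Leaving out libraries or mice turned further signs, within these ranges. For genotype early they were -1.02 to 0.071 for Aqp4, -0.40 to 0.25 for Cftr, -1.90 to 0.23 for Guca2a, -0.21 to 0.54 for Guca2b, -0.37 to 0.11 for Scnn1a, -0.092 to 0.47 for Slc16a1 and -0.018 to 0.082 for Atp1b3. Late they were -0.18 to 0.26 for Guca2b, -1.48 to 0.056 for Scnn1a and -0.14 to 0.12 for Slc12a2. Over all days they were -0.078 to 0.31 for Guca2b, -0.82 to 0.090 for Scnn1a, -0.044 to 0.17 for Slc12a2, -0.32 to 0.27 for Slc16a1 and -0.88 to 0.072 for Klf4. In the interaction they were -0.59 to 0.32 for Guca2b, -0.73 to 0.43 for Slc26a3 and -0.83 to 0.18 for Slc16a3. Late against early in WT they were -0.037 to 1.02 for Scnn1a, -0.021 to 0.36 for Slc16a1, -0.65 to 0.51 for Slc26a3 and -0.13 to 0.29 for Tnfrsf1b. In Tnfr2-/- they were -0.093 to 0.25 for Aqp8, -0.29 to 0.033 for Cftr, -0.40 to 1.43 for Guca2a, -0.22 to 0.028 for Scnn1a, -0.61 to 0.17 for Slc26a3 and -0.17 to 0.77 for Aqp5.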

Other observations

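Markers of other cell types changed beside the transporters, with differences given on the log2(value + 1) scale and limma adjusted p-values. Late against early, 11.6% of all genes were called higher and 8.52% lower in WT, and 10.4% and 9.93% in Tnfr2-/-. Of 7 stem and proliferating cell markers, Lgr5 rose late in both genotypes (1.99 in WT and 2.15 in Tnfr2-/-), and the proliferation genes Mki67, Top2a, Birc5 and Pbk fell in both, Top2a by 0.82 in WT and by 1.15 in Tnfr2-/-. The stem gene Smoc2 rose in WT (2.12, adjusted p = 0.0106). Pbk was the only gene of this list called between genotypes late, at -0.94 (limma adjusted p = 0.00806). Of 7 goblet and deep secretory markers tested, 5 rose late in WT and 3 in Tnfr2-/-, with Muc2, the main colonic mucin, at 4.31 and 3.22. Fcgbp (-1.54) and Spdef (-1.14) were lower over all days in Tnfr2-/-, where 3.09% of all genes were. Spdef and Chga averaged 0.697 and 0.972 in Tnfr2-/- and were tested through WT, where they are higher. WT mouse 1 stood apart here too, with early Fcgbp at 33.46, 11.53 and 19.56, against 3.841, 2.018 and 2.753 in WT mouse 2 and 0.9268 to 4.685 in Tnfr2-/-. Of 4 enteroendocrine markers tested, Chga (1.88) and Pyy (3.07) rose late in WT. In Tnfr2-/- Pyy differed by 2.77 (adjusted p = 0.0578) and Chga by 0.92 (adjusted p = 0.284), and Chga was lower over all days in Tnfr2-/- (-1.56, adjusted p = 0.0225). Tuft cell markers summed to 9.906 to 27.39 over the 20 libraries.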
